A study of Mus musculus with 16 samples.

Results

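The genes that make, clear and sense prostaglandins were followed in 16 primary epicardial explants from mice, of which 8 had received blebbistatin and 8 had not. A list of 10 such genes was searched by symbol in the deposited count table of 15805 genes. It found 9 of them, the cyclooxygenases Ptgs1 and Ptgs2, the terminal synthases Ptgis, Ptges, Ptges2, Ptges3 and Ptgds, the inactivating enzyme Hpgd and the receptor Ptger4. The other listed receptor, Ptger2, was not analysed here. All 9 passed the filter on low counts, which left 15675 genes. The list was drawn up with the difference between blebbistatin and control already in view, so that difference is given for these 9 genes as a description, and their adjusted p-values support nothing by themselves.

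Every explant came from C57BL6 mice, was annotated as epicardial cells, was a primary culture and was grown on a collagen gel. The treated explants received blebbistatin, an inhibitor of myosin II, which pulls on actin filaments and lets cells contract. The labels put its amount at 20 but disagree on the unit (mM or mm), which leaves the concentration unknown. The controls are labelled as having had no blebbistatin, and no label names a solvent, the time in the drug, the age of the mice or the number of mice behind the explants. Nothing says whether the 8 explants of a group came from separate animals, so the spread between libraries may be partly technical.

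Prostaglandins are lipid signals made from arachidonic acid, which phospholipases free from membranes. A cyclooxygenase turns arachidonic acid into the unstable intermediate prostaglandin H2, and terminal synthases turn that into prostacyclin, prostaglandin E2, prostaglandin D2 or thromboxane. The cyclooxygenase encoded by Ptgs1 is known as the form present in many resting cells, and that encoded by Ptgs2 as the form induced by growth factors, cytokines and mechanical stress. Mesothelial cells, the family of lining cells to which the epicardium belongs, are known as a source of prostacyclin. The products act on receptors of neighbouring cells, and uptake by a transporter followed by oxidation ends the signal.

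Libraries held 20176386 to 89620195 counts with blebbistatin and 27065611 to 60321622 in controls, so 1 CPM (a count scaled to the library's total) stood for 20.2 to 89.6 counts. All 10 epicardial markers examined averaged at least 10 CPM, among them Wt1, Tcf21, Upk3b and Upk1b. Their summed level ran from 1245 to 3391 CPM with blebbistatin (median 2166) and from 1927 to 3798 CPM in controls (median 2906). The lowest sum belonged to blebbistatin 6 and the next to blebbistatin 3 (1541 CPM). Of macrophage markers 15 of 15 were measured, with sums of 317 to 4295 CPM with blebbistatin and 347 to 4918 CPM in controls. Mitochondrial genes took 16.8% to 25.5% of the counts with blebbistatin and 13.8% to 18.9% in controls. Of 7 mast cell markers only Kit was measured, at a mean of 1.79 CPM, and of 10 endothelial markers 6 were measured, of which Tek alone averaged over 10 CPM. Marker sums here and further on, and the marker means of this paragraph, were scaled to library totals alone. CPM levels of single genes further on were TMM-scaled.

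In control explants the pathway was led by its cyclooxygenases. Per kilobase of annotated exon, Ptgs1 stood at 86.9 ± 16.5 CPM and Ptgs2 at 85.7 ± 22.8 CPM (SD, n = 8 libraries, TMM-scaled). Ptgs1 was above Ptgs2 in 5 of 8 control libraries, so these levels did not differ beyond their spread. Prostacyclin synthase, Ptgis, followed at 58.1 ± 10.4 CPM per kilobase and Ptges3, which encodes the cytosolic prostaglandin E synthase also known as the p23 co-chaperone of Hsp90, at 52.9 ± 17.9. Ptgis was above Ptges3 in 4 of 8 libraries. Hpgd came next at 14.9 ± 5.98, below Ptges3 in 8 of 8 libraries. The remaining genes were low. Ptgds, for a prostaglandin D synthase of the lipocalin family, stood at 3.74 ± 2.73 CPM per kilobase, Ptger4 at 1.54 ± 0.363, Ptges2 at 0.879 ± 0.430 and Ptges, for the inducible membrane-bound prostaglandin E synthase, at 0.448 ± 0.265. Each of these lengths covers all annotated exons of the gene, which understates the level of a gene whose long transcripts are not used.

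In the blebbistatin libraries Ptgs2 was further down this order, at 28.8 ± 16.1 CPM per kilobase, below Ptgs1 (74.9 ± 19.9), Ptges3 (49.2 ± 13.5) and Ptgis (39.3 ± 16.3), and Ptgis was above it in 7 of 8 libraries. Ptges3 and Ptgis also traded places by mean, with Ptges3 above Ptgis in 5 of 8 libraries. Among the low genes, Ptges2 (1.04 ± 0.429) and Ptger4 (0.999 ± 0.345) changed places, and Ptges2 was above Ptger4 in only 3 of 8 libraries.

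**Figure D1:**
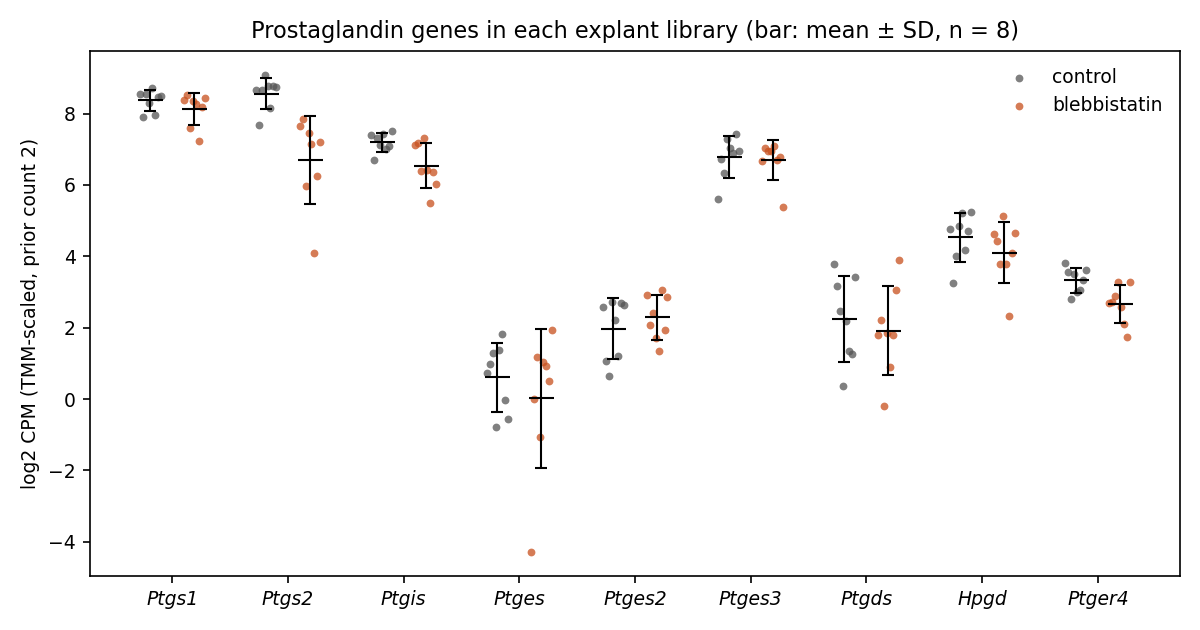
Level of each of the 9 genes in each library, as log2 CPM (TMM-scaled, prior count 2), with the mean and SD over 8 libraries per group. Ptgs2 is the gene whose groups lie furthest apart, with 7 of 8 blebbistatin libraries below the lowest control, and the groups of all 9 genes overlap to some extent, least for Ptgs2.

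The cyclooxygenase genes parted. Ptgs2 (ENSMUSG00000032487, chromosome 1, 150100031 to 150108227, plus strand, GRCm38) ran from 17.2 CPM in blebbistatin 6 through a median of 145 to 231 CPM in blebbistatin 2, against 203 CPM in control 2, a median of 418 and 546 CPM in control 4. Thus 7 of 8 blebbistatin libraries lay below every control, and the overlap consisted of blebbistatin 2 against control 2. Mean levels were 132 ± 73.8 and 393 ± 104 CPM. By edgeR the gene was 2.98-fold lower with blebbistatin, with a log2 fold change of −1.57 (SE 0.35). By mean CPM Ptgs2 ranked 239th of 15675 genes in controls and 1066th with blebbistatin.

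Ptgs1 (ENSMUSG00000047250, chromosome 2, 36230426 to 36252272, plus strand) ran from 151 CPM, again in blebbistatin 6, through a median of 319 to 369 CPM, against 242 CPM in control 2, a median of 358 and 425 CPM in control 5. The groups overlapped in most of their range, with 2 blebbistatin libraries below the lowest control. The means were 291 ± 77.4 and 338 ± 64.1 CPM (log2 fold change −0.22, SE 0.17). Its rank was 296th in controls and 340th with blebbistatin. Its coefficient of variation over libraries was 26.6% with blebbistatin and 19.0% in controls, while that of Ptgs2 was 56.0% and 26.6%.

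Because both genes were counted in the same library, their ratio needs no scaling between libraries. In controls the count of Ptgs2 divided by that of Ptgs1 ran from 0.841 in control 2 through a median of 1.11 to 1.73 in control 4. With blebbistatin it ran from 0.114 in blebbistatin 6 through a median of 0.441 to 0.627 in blebbistatin 2. The groups did not overlap: the highest blebbistatin ratio lay below the lowest control ratio. Of the reads of both cyclooxygenase genes, Ptgs2 took 28.4% ± 9.61 with blebbistatin and 53.2% ± 5.02 in controls. The ratio to Ptgs1 did not overlap between groups, being lower with blebbistatin, for 0.0829% of the 15674 other genes, 13 in number (0.147% in either direction), and for Ptgs2 alone among the 8 other genes of the list. As the genes were chosen with this contrast in view, nothing further is read from that.

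**Figure D2:**
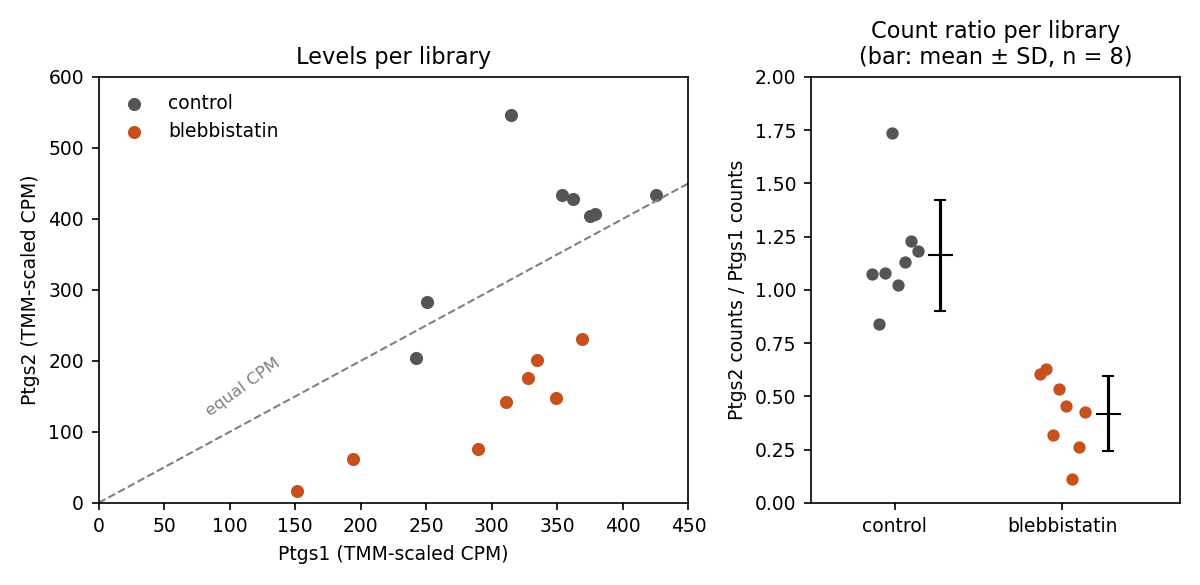
Left, TMM-scaled CPM of Ptgs2 against Ptgs1, a point per library, with a dashed line at equal CPM. Right, the ratio of Ptgs2 counts to Ptgs1 counts per library with mean ± SD (n = 8 per group). All 8 blebbistatin libraries lie below the line with ratios of at most 0.627, and the control ratios start at 0.841.

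The promoters of this pair are shown because the genes of this pair had such unlike differences between the groups. The windows run from 250 bases before the annotated start to 30 bases after it, on the plus strand, from RefSeq on GRCm38.p6, at chr1:150099781-150100060 for Ptgs2 and chr2:36230176-36230455 for Ptgs1. Capitals mark every match to 7 motifs searched on both strands.
Ptgs2: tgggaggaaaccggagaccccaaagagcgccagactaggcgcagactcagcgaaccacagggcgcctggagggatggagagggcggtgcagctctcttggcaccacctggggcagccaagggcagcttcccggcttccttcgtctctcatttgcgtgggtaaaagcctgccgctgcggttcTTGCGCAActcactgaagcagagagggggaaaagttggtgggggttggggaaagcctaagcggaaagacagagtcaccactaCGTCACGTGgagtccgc
Ptgs1: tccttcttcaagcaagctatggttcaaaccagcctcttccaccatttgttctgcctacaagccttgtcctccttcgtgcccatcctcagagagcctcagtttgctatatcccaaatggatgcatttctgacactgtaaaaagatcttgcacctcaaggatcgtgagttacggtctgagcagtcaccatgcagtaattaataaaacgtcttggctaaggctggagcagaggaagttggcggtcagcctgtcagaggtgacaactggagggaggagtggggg
The Ptgs2 window held the C/EBP palindrome TTGCGCAA at −69 to −62, the CRE core TGACG (read on the minus strand, CGTCA on the plus strand) at 14 to 18 and the E-box CACGTG at 17 to 22, where −1 is the last base before the start and the start itself is 1. The CRE core and the E-box share 2 bases and together form a single run of capitals. The C/EBP palindrome occurred in 0.181% of 32541 promoter windows of the same length, the E-box in 6.81% and the CRE core in 20.0%. No match to the full CRE TGACGTCA (1.75% of windows), TATAAA (13.1%), the CArG box of SRF (1.57%) or the consensus NF-kB site (7.97%) was in the Ptgs2 window, and the Ptgs1 window held no match to any of the 7. Promoter windows were matched for 9 of the 10 listed genes, Ptgis being the one without an entry. Elsewhere in the list, a TATAAA was found for Hpgd, an E-box for Ptges2, an NF-kB consensus for Ptgds and Ptges3, and a CRE core for Ptges3. A match is a string of letters and was not tested for binding. Positions follow the annotated start, and bases on either side of the windows were not searched. A motif missing from a window may therefore lie near it.

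Of the terminal synthases, Ptgis (ENSMUSG00000017969, chromosome 2, 167191805 to 167240604, minus strand), a cytochrome P450 enzyme that makes prostacyclin, was the most abundant per kilobase in controls. It ran from 45.0 CPM in blebbistatin 6 through a median of 85.2 to 160 CPM in blebbistatin 4, against 103 CPM in control 2, a median of 149 and 183 CPM in control 8. Of the 8 blebbistatin libraries, 5 lay below every control, and blebbistatin 1, 2 and 4 lay among the controls. The means were 101 ± 41.8 and 149 ± 26.6 CPM (log2 fold change −0.56, SE 0.21).

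The genes of prostaglandin E synthesis overlapped throughout. Ptges3 (chromosome 10, 128058954 to 128077272) ran from 41.4 through a median of 117 to 136 CPM with blebbistatin and from 48.4 through a median of 122 to 173 CPM in controls, with a log2 fold change of −0.11 (SE 0.23). The lowest values were those of blebbistatin 8 and control 1. Ptges2 (chromosome 2, 32395896 to 32405772) ran from 2.48 to 8.23 CPM with blebbistatin and from 1.53 to 6.60 CPM in controls, and was the only member with a positive log2 fold change (0.24, SE 0.36). Ptges (chromosome 2, 30889471 to 30929863) had a median of 1.60 CPM with blebbistatin and 1.77 CPM in controls and reached at most 3.74 and 3.51 CPM (log2 fold change −0.17, SE 0.66). Its count was 0 in blebbistatin 1, a library of 51041224 counts, which allows a level of up to 0.0588 CPM (3 counts of the library total, counting error only). Ptgis and Ptges3 thus had the highest RNA levels of the listed terminal synthases, and the inducible Ptges the lowest.

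Ptgds (chromosome 2, 25466709 to 25470046) was the most variable member relative to its level, with coefficients of variation of 88.2% with blebbistatin and 72.9% in controls. It ran from 0.814 to 14.7 CPM with blebbistatin and from 1.23 to 13.8 CPM in controls (log2 fold change −0.28, SE 0.53). High and low libraries occurred in both groups.

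Hpgd (chromosome 8, 56294585 to 56321043) encodes the dehydrogenase that starts the inactivation of prostaglandins. It ran from 4.96 CPM in blebbistatin 6 through a median of 19.1 to 34.7 CPM in blebbistatin 4, against 9.45 CPM in control 2, a median of 26.8 and 38.0 CPM in control 8. The groups overlapped, with 1 blebbistatin library below the lowest control, and the log2 fold change was −0.38 (SE 0.32).

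Ptger4 (chromosome 15, 5206661 to 5244187) encodes the EP4 receptor, which senses prostaglandin E2 and raises cAMP. It ran from 3.28 CPM in blebbistatin 7 through a median of 6.51 to 9.70 CPM in blebbistatin 4, against 6.89 CPM in control 3, a median of 10.6 and 13.9 CPM in control 1. All 8 blebbistatin libraries lay below the control median and 5 lay below every control. The means were 6.64 ± 2.29 and 10.3 ± 2.41 CPM (log2 fold change −0.63, SE 0.24). Ptger4 overlaps Ttc33, a gene on the other strand that is also in the table, and since the strand setting of the counting is not given, reads in the overlap cannot be assigned with certainty. Ptgs1, Ptges, Ptgis and Hpgd overlap annotated genes that were not analysed here.

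In edgeR's quasi-likelihood test with Benjamini-Hochberg adjustment over all 15675 genes, 1 of the 9 members passed an adjusted p of 0.05, Ptgs2, against 0.606% of all genes. Its adjusted p was 0.0464, just under the threshold. Ptgis (adjusted p = 0.267) and Ptger4 (adjusted p = 0.279) had an unadjusted p under 0.05, as 12.2% of all genes did, and the others had adjusted p-values of 0.659 to 0.941. The median log2 fold change of the members was −0.28, with 8 of 9 negative, beside 0.04 and 45.9% negative over all tested genes. In CPM, 0 of 9 members had groups that did not overlap, and 0.242% of all genes had such groups. DESeq2 and limma voom each passed Ptgs2 alone (adjusted p = 0.00549 and 0.0271), where they passed 2.79% and 0.721% of the genes given an adjusted p.

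Whether Ptgs2 passed turned on single libraries. When the fit was repeated without each of the 16 libraries, the log2 fold change ran from −1.74 to −1.40, and the adjusted p of edgeR passed in 6 of 16 fits. It did not pass without blebbistatin 3, 4, 7 or 8 or without control 1, 3, 4, 5, 7 or 8, where it ran from 0.0519 to 0.0941. Without blebbistatin 6, the library with the lowest Ptgs2, it was 0.0218 with a log2 fold change of −1.40 (SE 0.26). With the mean level of the epicardial markers as a covariate, an alternative added after the data had been seen, the log2 fold change of Ptgs2 was −0.99 (SE 0.34, adjusted p = 0.429), and no gene of the table passed. These markers had log2 fold changes of their own, from −1.33 for Krt19 to 0.14 for Tcf21, the only positive one, with 0 of 10 called. That fit therefore cannot separate the covariate from the treatment. With the mean level of the macrophage markers as a covariate the log2 fold change of Ptgs2 was −1.64 (edgeR, adjusted p = 0.0164). The summed smooth muscle markers moved with the groups, at 528 to 1000 CPM in blebbistatin explants and 1117 to 1963 CPM in the controls, with 7 of 7 measured and 2 called, Acta2 and Tagln. Acta2 had the highest mean of these markers (445 CPM with blebbistatin and 1037 CPM in controls). Smtn had similar means in the groups (45.9 and 47.2 CPM), and Myh11, Cnn1 and Lmod1 had means of 0.63 to 5.10 CPM. The cardiomyocyte sum was 651 to 1214 CPM with blebbistatin and 410 to 1022 CPM in controls, mostly from Tnnt2, with 6 of 11 measured (Myh7, Tnni3, Myl2, Nppa and Pln not analysed here) and Ttn called. These markers did not move as one. Ryr2 had a log2 fold change of 2.12 and Myl7 of −0.26 (means of 77.9 CPM with blebbistatin and 93.4 CPM in controls). Myh6 and Actc1, with means of 0.92 to 1.83 CPM, were not tested. The part of the smooth muscle and cardiomyocyte markers in the Ptgs2 difference was not tested, and the mitochondrial share was not used as a covariate. With the mitochondrial genes left out of the counts, the log2 fold change of Ptgs2 was −1.57 (edgeR, adjusted p = 0.0476). In bulk libraries such as these, fewer cells of a type and less RNA per cell cannot be told apart.

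**Figure D3:**
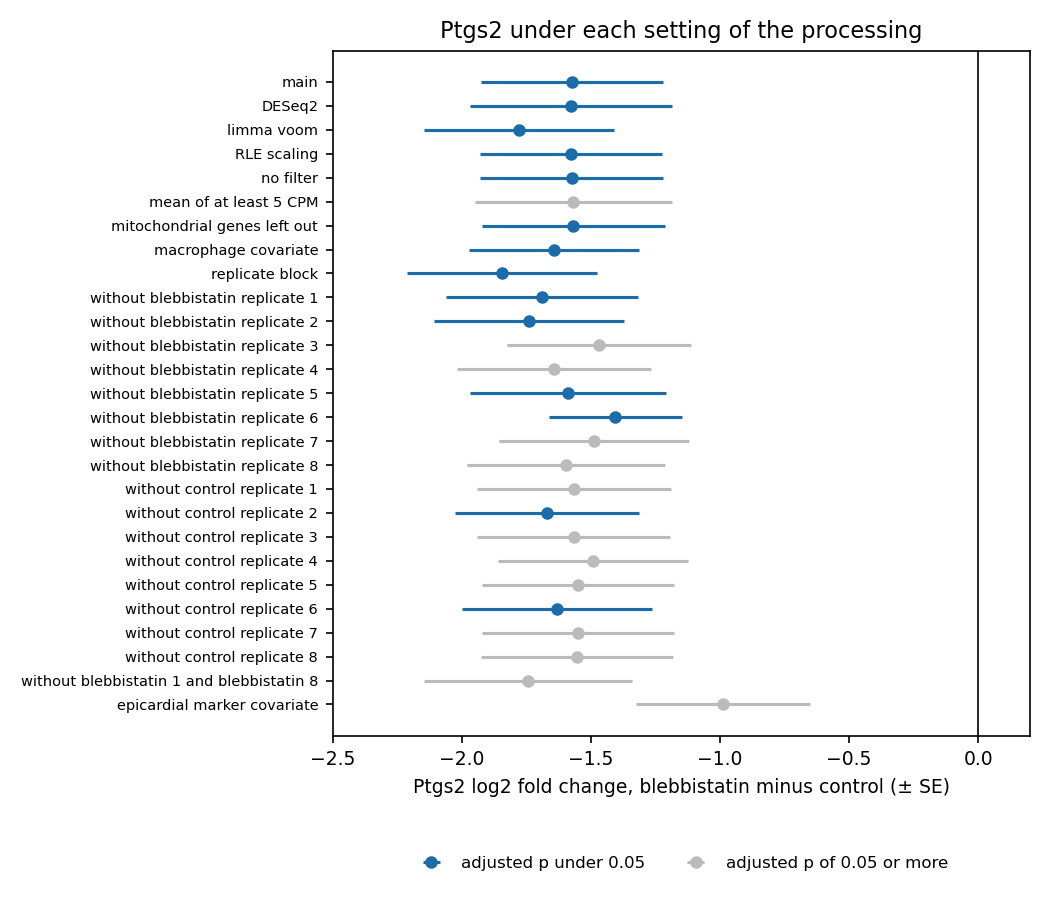
Log2 fold change of Ptgs2, blebbistatin minus control, with its SE under each setting of the processing, coloured by whether the adjusted p was under 0.05. Every estimate is negative, from −1.84 to −0.99, and most fits without a single library fall on the far side of the threshold.

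Next, the variation among explants of the same group was examined, after each group's mean had been subtracted, so that the difference between groups plays no part in it. Ptgs1, Ptgs2, Ptgis and Hpgd varied together. Of 36 pairs of members, 7 passed a 2-sided permutation test within groups (100000 resamples, adjusted over the 36 pairs), and 6 of the 7 were the pairs among these 4 genes. The strongest was Ptgs1 with Ptgs2, with Pearson's r = 0.89 (permutation p = 4e-05, adjusted p = 0.00144) and Spearman's rho = 0.76 (permutation p = 0.00272, adjusted p = 0.0335) over 16 libraries. Thus explants with more of one cyclooxygenase RNA also had more of the other, although the ratio between them differed between the groups. The share of all gene pairs that would pass such a test was not computed. Whether this covariation is particular to these members was therefore not tested.

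Within the blebbistatin libraries alone r was 0.95 for Ptgs1 with Ptgs2, and within the controls 0.75. The other pairs had r = 0.83 for Ptgs2 with Hpgd (rho 0.74), 0.82 for Ptgs1 with Hpgd (rho 0.72), 0.80 for Ptgs2 with Ptgis (rho 0.68), 0.77 for Ptgis with Hpgd (rho 0.68) and 0.72 for Ptgs1 with Ptgis (rho 0.65), with permutation p-values adjusted over the pairs of 0.00576 to 0.0182 for r and 0.0335 to 0.0708 for rho. As background, a cyclooxygenase and Ptgis act in sequence to make prostacyclin, and Hpgd inactivates prostaglandins.

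The relations leaned on a few libraries. Blebbistatin 6 was the lowest library for all 4 genes, and without it 1 of 36 pairs passed, Ptgs1 with Ptgs2 (r = 0.81, permutation test, adjusted p = 0.0191). Without the 2 libraries farthest from the median of the first gene, blebbistatin 6 and 3, r for Ptgs1 with Ptgs2 was 0.70 (permutation p = 0.0033). Likewise r was 0.57 for Ptgs2 with Hpgd (permutation p = 0.042) and 0.58 for Ptgs2 with Ptgis (permutation p = 0.118), each without blebbistatin 6 and control 2. For Ptgs1 with Hpgd it was 0.68, for Ptgis with Hpgd 0.53 and for Ptgs1 with Ptgis 0.53 (permutation p = 0.0184, 0.0321 and 0.012).

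The seventh pair ran the other way. Ptges3 and Ptgds had r = −0.71 (permutation test, adjusted p = 0.0182) and rho = −0.69 (permutation test, adjusted p = 0.0426), with −0.70 within the blebbistatin libraries and −0.71 within the controls. Without blebbistatin 8 and control 1, the libraries with the lowest Ptges3 and the highest Ptgds of their groups, r was −0.50 (permutation p = 0.0858). The relation thus leaned in part on those libraries, and kept its sign without them.

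**Figure D4:**
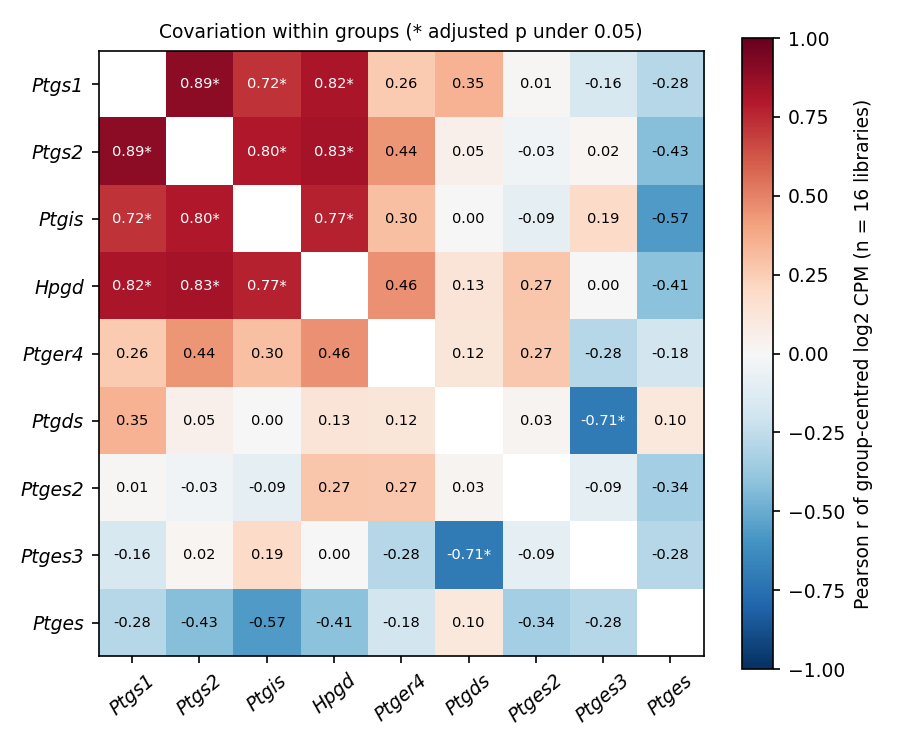
Pearson's r between members over 16 libraries after each group's mean log2 CPM was subtracted, with stars on pairs whose permutation p, adjusted over 36 pairs, was under 0.05. Ptgs1, Ptgs2, Ptgis and Hpgd form a block with r of 0.72 to 0.89, and Ptges3 with Ptgds is the starred negative pair at −0.71.

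The same 4 genes varied with the summed level of the epicardial marker RNAs. The most abundant markers weigh most in that sum. In controls Upk1b had a mean of 1014 CPM and Upk3b of 824 CPM, against 75.5 CPM for Wt1 and 50.3 CPM for Tbx18. Whether the 4 genes varied with the less abundant markers was not tested. Over 16 libraries and again with group means subtracted, r with the summed CPM of the 10 epicardial markers (log2) was 0.84 for Ptgs1 (permutation test, adjusted p = 0.00468 over 36 relations), 0.74 for Ptgis, 0.73 for Ptgs2 and 0.71 for Hpgd (permutation test, adjusted p = 0.0331 each). Spearman's rho was 0.74, 0.70, 0.58 and 0.68 (permutation p = 0.00224, 0.00612, 0.0281 and 0.0064). Without the 2 libraries farthest from the median of the marker sum r was 0.75, 0.54, 0.50 and 0.60. None of the 9 genes passed with the macrophage sum, the mitochondrial share or the total count; the nearest was Ptges with the macrophage sum (r = 0.62, permutation test, adjusted p = 0.0753; rho = 0.70, permutation p = 0.0042). These 36 relations were chosen after the data had been seen. The share of all genes that would pass with the epicardial sum was not computed. Whether the relation is particular to these 4 genes was therefore not tested.

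Outside the list itself, the 5 genes most like Ptgs2, among 9648 named genes at a mean of at least 5 CPM and by Pearson's r of group-centred log2 CPM over the 16 libraries, were the protocadherin gene Pcdh19 (r = 0.93, rho = 0.93), Pmepa1 (r = 0.90, rho = 0.84), an inhibitor of TGF-beta signalling, the collagen VI receptor gene Antxr2 (r = 0.89, rho = 0.90), the caveolae gene Cav1 (r = 0.89, rho = 0.82) and S100a6 (r = 0.89, rho = 0.82). These are the highest of many values and are given as a description with no test. For Cav1 and S100a6 r was 0.96 and 0.97 within the blebbistatin libraries and 0.32 and 0.45 within the controls, and for Pmepa1 0.93 and 0.86. Their log2 fold changes between the groups ran from −1.02 for Cav1 to −0.41 for S100a6, and none passed edgeR (adjusted p of 0.0729 to 0.590).

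The steps around the cyclooxygenases were read from 5 further lists of 42 genes, of which 32 were in the table and 30 were tested. Of these 30 genes 0 passed edgeR, DESeq2 or limma voom, and 4 had an unadjusted edgeR p under 0.05, of which 3 were lower and 1 was higher, beside 12.2% of all genes. Their median log2 fold change was 0.00, with 15 negative and 15 positive.

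Of 7 tested genes that free arachidonic acid or return it to lipids, 0 passed and 5 had negative fold changes (median −0.24). The 3 of smallest p were Mgll, for the lipase that cleaves monoacylglycerols (23.2 ± 11.9 CPM in blebbistatin explants and 39.2 ± 6.03 CPM in the controls, log2 fold change −0.76, adjusted p = 0.215), Acsl4, which couples arachidonic acid to coenzyme A (109 ± 26.5 and 143 ± 23.5 CPM, −0.40, adjusted p = 0.251), and Pla2g4a, the cytosolic phospholipase A2 (71.9 ± 21.2 and 95.7 ± 25.8 CPM, −0.41, adjusted p = 0.374). Of the 8 blebbistatin libraries, 7, 8 and 7 lay below the control median of these genes, and the groups overlapped for each.

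Of 7 other prostanoid synthases, 0 passed (median −0.12). Hpgds, the prostaglandin D synthase of blood-derived cells, ran from 2.01 to 35.1 CPM with blebbistatin and from 1.61 to 20.0 CPM in controls (log2 fold change 0.81, SE 0.52, adjusted p = 0.575). Akr1b10 (0.30, adjusted p = 0.644) is a paralog of Akr1b8 and Akr1b3, between which reads may be split, and Fam213b, for a synthase of prostaglandin F, had −0.31 (adjusted p = 0.739). Of 5 genes of transport and inactivation, 0 passed (median 0.09). Slco2a1, the prostaglandin transporter, had a level in CPM, not divided by length, of 398 ± 149 CPM in blebbistatin explants and 340.0 ± 92.3 CPM in the controls (0.23, adjusted p = 0.717). The prostaglandin reductase genes Zadh2 and Ptgr1 had log2 fold changes of 0.43 and −0.39 (adjusted p = 0.310 and 0.447).

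Of the other receptors and their partners 4 were tested and 0 passed (median 0.11). Ptgfrn, which binds the prostaglandin F receptor, stood at 92.3 ± 11.8 and 87.9 ± 10.6 CPM (log2 fold change 0.07, adjusted p = 0.828), Ppard, for a nuclear receptor of fatty acids, had 0.16 (adjusted p = 0.799), and Pparg, at a mean of 2.15 CPM (blebbistatin) and 1.15 CPM (control), had 0.90 (SE 0.81, adjusted p = 0.707). The receptor genes for prostacyclin, Ptgir, and thromboxane, Tbxa2r, were in the table but too low to test, at medians of 0.159 and 0.0683 CPM (blebbistatin) and 0.456 and 0.349 CPM (control); they are named because they were the only genes of the pathway lists lost to the filter. Of 7 genes of the lipoxygenase and epoxide branches, which use the same arachidonic acid, 0 passed (median 0.09), with log2 fold changes of 0.28 for Ephx1, −0.55 for Ephx2 and 0.29 for Alox5ap (adjusted p = 0.661, 0.777 and 0.879).

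Receptors such as EP4 act through cAMP, so 14 genes known to respond to cAMP were read as well. Of 13 tested, 0 passed edgeR, where 4 were under 0.05 before adjustment, beside 12.2% of all genes. DESeq2 passed 2 lower and 1 higher (2.79% of all genes), and limma voom passed 1 lower (0.721% of all genes). The edgeR count of the list was not stable, at 3 with the macrophage covariate, 2 without control 6, and 1 with a filter at a mean of 5 CPM or without blebbistatin 1, 5 or 7 or control 4. The 3 of smallest p were the orphan nuclear receptors Nr4a1 (mean 9.21 ± 2.27 with blebbistatin and 20.2 ± 9.78 CPM in control explants, log2 fold change −1.13, adjusted p = 0.0527) and Nr4a3 (6.59 ± 2.98 and 13.1 ± 2.22 CPM, −0.99, adjusted p = 0.0792), and Ppargc1a, a coactivator of mitochondrial genes (15.2 ± 16.9 and 3.41 ± 4.09 CPM, 2.16, adjusted p = 0.137). The list thus held genes at both ends, and its median log2 fold change was 0.03 beside 0.04 over all genes. Many of these genes also respond to serum and other stimuli.

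**Figure D5:**
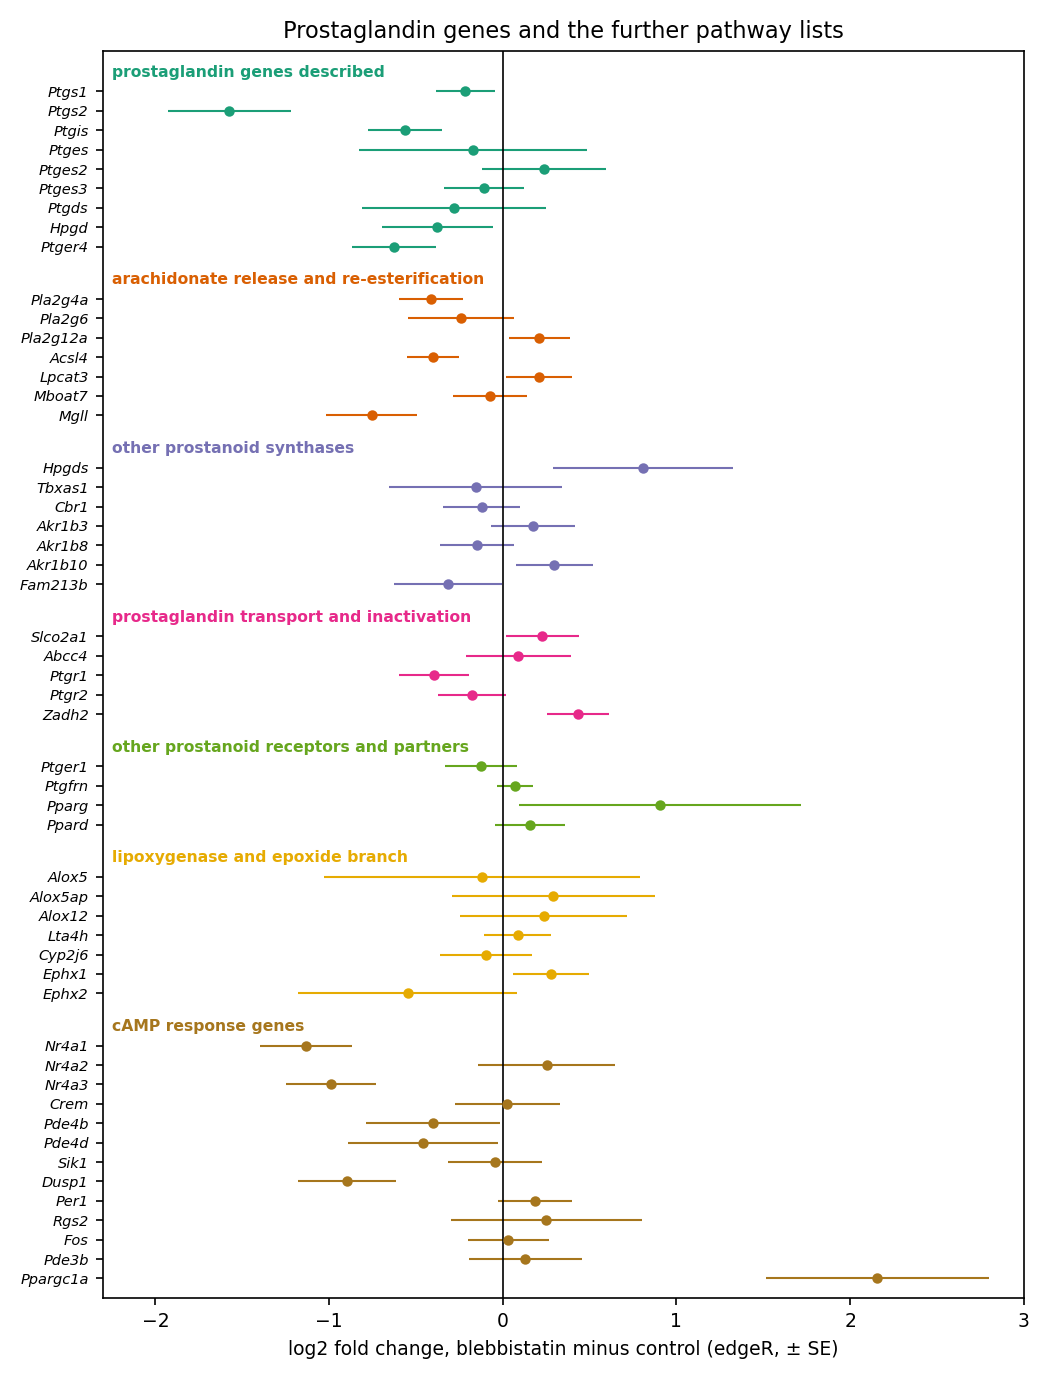
Log2 fold change, blebbistatin minus control, with its SE from edgeR for the 9 members and the 43 tested genes of the further lists, grouped by role. Ptgs2 at −1.57 lies apart from the other members, which run from −0.63 to 0.24, and the 30 genes of the 5 further pathway lists run from −0.76 to 0.90.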

How the data were processed

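RNA was measured by sequencing in 16 mouse epicardial explants. The authors deposited raw counts per gene, the unit used here, and all 16 columns were used. RNA was amplified with an Ovation RNA-Seq V2 kit and libraries were made with Nextera XT, per the labels' protocols. Per the submitters' processing notes, the tools were HTSeq 0.6.1p1, edgeR, SAMtools 1.3, TopHat2 2.1.0 and Bowtie2 2.2.6.0, on mouse build mm10. Those sources name no annotation and no strand setting. Every gene of the table exceeded 1 CPM in at least 4 libraries, so lower genes were not analysed here. Amplified reads carry no molecular identifiers, so count-based limits cover counting error only.

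Groups came from the labels. Counts were TMM-scaled and filtered with filterByExpr (130 genes removed), then tested with edgeR 4.0.16 in R 4.3.3 (robust quasi-likelihood fit, group as the only term, threshold 0.05). Log2 CPM used a prior count of 2. DESeq2 1.42.0, limma 3.58.1 voom, other scaling and filters, covariates, the replicate block and leaving out libraries were alternatives. Correlations of the members and their permutation tests used numpy 2.4.6, with ranks and adjustment from scipy 1.17.1. Likeness to Ptgs2 and the correlations of same-numbered libraries were computed in R. Scripts were tested on simulated data. Gene positions and exon lengths are from GENCODE M21 on GRCm38, promoters from RefSeq on GRCm38.p6. Within each group no library repeated another: for the closest pair, controls 7 and 8, chi-square per degree of freedom was 48.5. Pairs across the groups were not compared in this way.

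The members and all lists were chosen with earlier results of these data known. Text names all members, up to 3 genes of smallest p per further list, every gene called there, and the 5 genes, other than members and predicted genes, most like Ptgs2. P-values measure only the spread between these libraries, whose animals of origin the labels do not name.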

Additional observations from a re-analysis of the deposited data

Results flagged for a closer look

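Ptges3 in blebbistatin 8 stood at 41.4 CPM, against 103 CPM in the next lowest blebbistatin library. This gap took up 0.65 of the range of the group, above the 95% critical value of Dixon's test for 8 samples. Among 18 gene-by-group tests this was the only one past its critical value, and chance passes about 1 in 20. Without blebbistatin 8 the log2 fold change of Ptges3 was 0.01 (SE 0.19) in place of −0.11.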

How the results depend on the processing

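The log2 fold change of Ptgs2 was negative under all 26 alternatives, and its adjusted p (edgeR unless named) was under 0.05 in 13 of them, with a range of 0.00549 (DESeq2) to 0.429. Beside the 10 fits without a single library, it did not pass with a filter at a mean of 5 CPM (−1.57, adjusted p = 0.0518), without blebbistatin 1 and 8 (−1.74, adjusted p = 0.0660) or with the epicardial covariate (−0.99). Calls over all genes, 95 in the fit reported, numbered 412 with DESeq2, 174 at a mean of 5 CPM, 234 with the macrophage covariate, 0 with the epicardial covariate and 44 (without control 7) to 206 (without control 6) when a single library was left out. Calls among the 30 further pathway genes stayed at 0 under all 26, and those among the 13 cAMP genes moved from 0 in 9 of 26, to 3 at most. The log2 fold change of Ptges ran from −0.51 to 0.05 when a library was left out, turning positive without blebbistatin 1 (0.012) or control 6 (0.049), and that of Ptges3 from −0.23 to 0.012 (without blebbistatin 8), and was 0.040 without blebbistatin 1 and 8. Ptges was −0.95 with limma voom. Ptgds ran from −0.74 (without blebbistatin 8) to −0.0055 (without control 1). With the epicardial covariate Ptgs1 had 0.20, Ptgds 0.83 and Hpgd 0.19. Correlated member pairs numbered 1 (without blebbistatin 6) to 7 when a library was left out. The cause of these shifts was not tested. Whether replicate numbers paired the samples could not be told. Deviations of same-numbered libraries correlated at 0.004 to 0.279, over 0.1 in 4 of 8 pairs. Of the libraries, 2 of 8 blebbistatin and 3 of 8 control libraries correlated best with their own number. With the replicate block 177 genes passed and Ptgs2 had −1.84 (edgeR, adjusted p = 0.0403). For the member pairs the block gave 8 correlated pairs, but it left same-numbered libraries as mirror images of each other. The permutation test treated these as separate libraries, which makes its p-values too small, so nothing is read from that count. Ptges, Ptgir, Tbxa2r, Pparg and Alox5 each had a lowest count of 0.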
